A study of Mus musculus with 2 samples.

Results

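The genes described here are 34 genes of the p53 pathway, out of 30905 gene rows that both deposited libraries list in common. They were chosen by symbol, as Trp53 itself, its main regulators and genes that it is known to switch on, and each symbol matched 1 row. Of the 34 genes, 32 had at least 50 unique molecular identifiers (UMIs, each standing for 1 captured mRNA molecule) in the T cells of both libraries together, and 31 had at least 100. Eda2r and Ak1 had no UMI in any T cell.

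p53, the product of Trp53, is a transcription factor that is kept scarce by the ubiquitin ligase MDM2 and its partner MDM4, and accumulates when DNA is damaged or when ribosome assembly or splicing fails. It binds paired half-sites near its target genes, whose products halt the cell cycle, repair DNA, supply nucleotides or open the mitochondrial and death receptor routes to apoptosis. Thymocytes and resting T cells are among the cells best known for dying by this route after irradiation.

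The study deleted Prmt5, which encodes the arginine methyltransferase PRMT5, in T cells. CD3+ cells were sorted from C57BL/6 mouse spleens and read with the 10x Genomics 3′ kit, version 3.1, as 1 library of a Prmt5 conditional knockout (CKO) and 1 library of controls, each from 3 mice per the design text. The CKO carries a CD4-Cre transgene, which acts in T cells from a thymic stage that precedes the choice between the CD4 and CD8 fates, and floxed Prmt5 alleles. The genotype field repeats the same Cre and floxed alleles for both samples, so the groups rest on the titles, which name a CKO and a control. Ages and sexes are not in the labels, and 32.7% of CKO and 27.6% of control T cells had a UMI of a Y-linked gene, so each library held cells of male mice. Xist, which is transcribed in female cells, stood out in a naive-like CD4 cluster of 546 CKO and 360 control cells, so female cells were present too. The share of each sex in a library is not known, and its part in the values below cannot be told apart from genotype. Cells could not be traced to mice, so each library is 1 sample, no difference between CKO and control was tested, and genotype and library cannot be told apart. Intervals below are 95% intervals for counting error alone (exact Poisson for levels, exact conditional binomial for ratios, Clopper-Pearson for shares, and for a share of 0 the limit that 3 cells would give), and ratios are given as log2 of CKO over control.

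After cell filtering there were 7573 CKO and 6622 control T cells with 51417709 and 46747072 UMIs, a median of 6050 and 6289 per cell. Their median mitochondrial share of UMIs was 4.33% in CKO and 5.09% in control. A stricter filter, at least 1000 genes and under 5% mitochondrial UMIs, left 5642 CKO and 3063 control T cells. Markers of T cells summed to 6785 and 6609 CPM (a class's UMIs of a gene, scaled so that all its UMIs add up to the same fixed total). Erythroid markers stood at 9.82 CPM in CKO and 1.20 CPM in control T cells, platelet markers at 1.42 and 0.406 CPM, and B cell markers at 262 and 250 CPM, and their part in the values below was not tested. The libraries shared 11 cell barcodes. Prmt5, the deleted gene, had 251 UMIs (4.88 CPM) in CKO and 702 UMIs (15 CPM) in control T cells, a log2 ratio of -1.62 (-1.83 to -1.41). In the 75 CKO and 74 control B-like cells, which lie outside the reach of CD4-Cre, Prmt5 stood at 18.7 and 20.3 CPM.

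Promoter sequences show which members carry p53 letters close to a start site. RefSeq windows (GRCm38.p6) from 250 bases before to 50 bases after a start were found for 26 of the 34 members, and the p53 half-site consensus, a palindrome that reads the same class of letters on both strands, was searched in each. The members have 36 windows, of which 12, from 11 members, hold it, beside 8.36% of all 32851 windows. Counted by gene, 11 of 26 members have it in at least 1 window, beside 9.55% of all genes with a window. A full site, 2 half-sites at most 13 bases apart, occurred in 0.0731% of all windows and, among the members, in Cdkn1a alone. The stretches below hold the half-sites of all 11 members, whose levels are followed in the results and include both higher and lower ones, with half-site letters in capitals. Phlda3, the member with the largest ratio, has no match in its window, and its bases before the start are shown for comparison. A match is a description of letters and not a shown binding site, and a window without one says nothing about sites elsewhere.

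Cdkn1a, chr17:29090869-29090968, plus strand: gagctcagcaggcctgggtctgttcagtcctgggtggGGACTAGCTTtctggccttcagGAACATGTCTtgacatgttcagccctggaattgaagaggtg
Bax, chr7:45467080-45467109, minus strand: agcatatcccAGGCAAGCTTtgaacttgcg
Ccng1, chr11:40755452-40755481, minus strand: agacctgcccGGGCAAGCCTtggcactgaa
Aen, chr7:78895927-78895956, plus strand: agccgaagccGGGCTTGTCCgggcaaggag
Ei24, chr9:36797325-36797354, minus strand: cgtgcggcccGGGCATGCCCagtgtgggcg
Mdm2, chr10:117710925-117710954, minus strand: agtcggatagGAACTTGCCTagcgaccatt
Polk, chr13:96519399-96519428, minus strand: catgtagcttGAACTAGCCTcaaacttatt
Trp53, chr11:69580274-69580303, plus strand: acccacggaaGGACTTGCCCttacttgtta
Gadd45a, chr6:67037428-67037457, minus strand: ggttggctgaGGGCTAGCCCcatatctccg
Ppm1d, chr11:85311112-85311141, plus strand: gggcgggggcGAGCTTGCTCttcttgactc
Sesn1, chr10:41887256-41887285, plus strand: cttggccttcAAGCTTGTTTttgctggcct
Phlda3, chr1:135765835-135766084, plus strand: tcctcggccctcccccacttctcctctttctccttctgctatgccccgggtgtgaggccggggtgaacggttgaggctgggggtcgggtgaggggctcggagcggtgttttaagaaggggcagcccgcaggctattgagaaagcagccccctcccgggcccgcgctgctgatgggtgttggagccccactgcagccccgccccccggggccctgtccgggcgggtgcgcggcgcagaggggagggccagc

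The Cdkn1a half-sites begin 73 and 51 bases before the start, and together they meet the full-site rule used here. The bases directly after the second one, tgacatgttc, miss the half-site pattern only in their first letter, so the search did not count them. Which of these bases p53 binds was not examined. A second Cdkn1a window, at a start further along the gene, holds none. The Bax half-site begins 201 bases before the start, that of Ccng1 185 bases, that of Mdm2 186 bases and that of Ei24 10 bases before it. Among these, Mdm2 was not higher in CKO beyond counting error. Nor were Gadd45a, Ppm1d and Sesn1, whose half-sites begin 40, 132 and 173 bases before the start. Polk carries its half-site in the window of 1 of 2 listed starts.

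Across all T cells, a few strong targets stood far apart in the CKO library while most members differed little. Of the 32 measured members (at least 50 UMIs in both libraries together), 24 were higher in CKO and 8 lower, where 60.6% of the 11522 measured genes were higher. Their median log2 ratio was 0.16, beside 0.05 for all measured genes. When ratios were taken relative to the median of all measured genes, 21 members were higher, beside 50% of genes. With mitochondrial and ribosomal protein genes left out, 50.5% of genes were higher in CKO. At least 1.5-fold higher were 4 members, Phlda3, Cdkn1a, Polk and Bax, beside 4.89% of all measured genes. At least 1.5-fold lower was 1 member, Plk2, beside 2.13% of all measured genes.

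**Figure D1:**
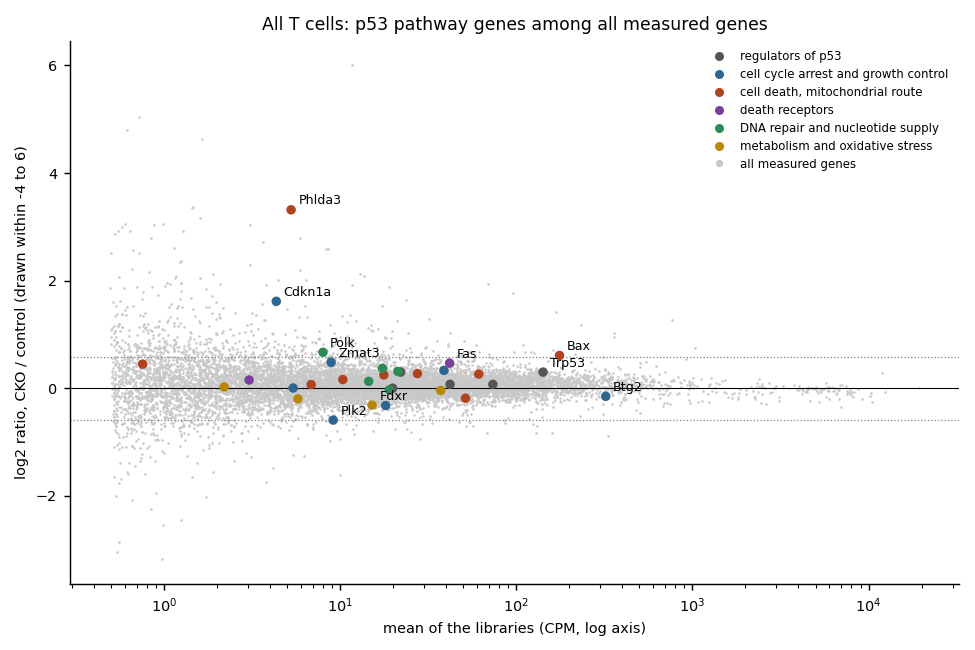
All T cells: each point is a gene with at least 50 UMIs, by its mean level over the libraries (CPM, log axis) and its log2 ratio of CKO over control (drawn within -4 to 6), with p53 pathway genes coloured by role and dotted lines at 1.5-fold. Phlda3 and Cdkn1a stand well above the cloud at low levels, Bax lies at the 1.5-fold line at a high level, and most members lie within the cloud.

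Phlda3, which encodes a pleckstrin homology protein that keeps the survival kinase AKT off the membrane, gave the widest difference. It had 493 UMIs (9.59 CPM, 8.76 to 10.5) in the CKO library and 45 UMIs (0.963 CPM, 0.702 to 1.29) in the control library. The libraries' intervals lie far apart, and the log2 ratio was 3.32 (2.87 to 3.79). That placed Phlda3 at rank 7 of 11522 measured genes. With each cell class weighted equally the log2 ratio was 2.52. A Phlda3 UMI was found in 4.81% of CKO T cells (364 cells, 4.34 to 5.31%) and 0.619% of control T cells (41 cells, 0.445 to 0.839%). When each cell was thinned to 2000 UMIs, leaving out 52 CKO and 26 control cells that were shallower, the shares were 1.69% and 0.177%. Even in CKO, then, most T cells showed no Phlda3 molecule at this depth.

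The other members grouped with Phlda3 under cell death were higher in CKO with 1 exception, and mostly by little. The group holds proteins of the mitochondrial route and others linked to cell death in other ways. Bax, the protein that perforates the outer mitochondrial membrane, is the most abundant of them, with 10935 UMIs (213 CPM) in CKO and 6521 UMIs (139 CPM) in control. Its intervals, 209 to 217 and 136 to 143 CPM, do not overlap, and its log2 ratio was 0.61 (0.56 to 0.65). In GENCODE vM21, Bax (chr7:45461697-45466898, minus strand) overlaps Gm45808 on the same strand, which had no UMI. Bbc3, which encodes the BH3-only killer PUMA, had 3438 UMIs (66.9 CPM) in CKO and 2606 UMIs (55.7 CPM) in control, a log2 ratio of 0.26 (0.19 to 0.34). Ei24, an endoplasmic reticulum protein linked to autophagy, had 1548 and 1165 UMIs (30.1 and 24.9 CPM), a log2 ratio of 0.27 (0.16 to 0.38). Aen, an exonuclease that helps cut DNA in dying cells, had 989 and 758 UMIs (19.2 and 16.2 CPM), a log2 ratio of 0.25 (0.11 to 0.39). For these 4 genes the ratio interval lay above 0.

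Pmaip1 and Apaf1 showed no difference beyond counting error, and the exception was lower. Pmaip1, which encodes the BH3-only protein NOXA, had 361 and 313 UMIs (7.02 and 6.70 CPM), a log2 ratio of 0.07 (-0.15 to 0.29). Apaf1, the scaffold of the apoptosome, had 563 and 458 UMIs (10.9 and 9.80 CPM), a log2 ratio of 0.16 (-0.02 to 0.34). Trp53inp1, a nuclear protein that helps p53 reach its death targets, had 2480 UMIs (48.2 CPM) in CKO and 2565 UMIs (54.9 CPM) in control, a log2 ratio of -0.19 (-0.27 to -0.11). Perp, a membrane protein of desmosomes, was too sparse to read alone, with 45 and 30 UMIs. With Eda2r and Ak1 added, which had none, the sum over the 3 low-count members was 45 and 30 UMIs, a CKO over control ratio of 1.36 (0.840 to 2.24).

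Genes of cell cycle arrest split in both directions. Cdkn1a, which encodes the cyclin-dependent kinase inhibitor p21, had 337 UMIs (6.55 CPM, 5.87 to 7.29) in CKO and 100 UMIs (2.14 CPM, 1.74 to 2.60) in control. The intervals do not overlap, and the log2 ratio was 1.62 (1.29 to 1.95), rank 67 of 11522. With each cell class weighted equally it was 0.39. Of the 100 control UMIs, 16 came from 22 gamma-delta-like and 15 from 105 NKT-like cells. Zmat3, a zinc finger protein that binds RNA, had 533 and 347 UMIs (10.4 and 7.42 CPM), a log2 ratio of 0.48 (0.28 to 0.68). Ccng1, cyclin G1, which guides a phosphatase to MDM2, had 2229 and 1611 UMIs (43.4 and 34.5 CPM), a log2 ratio of 0.33 (0.24 to 0.42).

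The remaining arrest genes were level or lower in CKO. Plk2, a polo-like kinase, had 375 UMIs (7.29 CPM) in CKO and 514 UMIs (11.0 CPM) in control, a log2 ratio of -0.59 (-0.79 to -0.40). Gadd45a, a stress protein of growth arrest and repair, had 830 and 943 UMIs (16.1 and 20.2 CPM), a log2 ratio of -0.32 (-0.46 to -0.19). Btg2, an antiproliferative protein that promotes the loss of mRNA tails, is the most abundant member, with 15706 and 15851 UMIs (305 and 339 CPM) and a log2 ratio of -0.15 (-0.18 to -0.12). For these 3 genes the interval lay below 0. Plk3, another polo-like kinase, with 279 and 253 UMIs (5.43 and 5.41 CPM), had a log2 ratio of 0.00 (-0.25 to 0.25). Btg2, Gadd45a and Plk2 are also known to be switched on by growth and stress signals apart from p53. Of 13 immediate early and dissociation stress genes, 4 were higher and 9 lower, 2 of them at least 1.5-fold beside 2.13% of all genes, Hspa1b (256 and 371 UMIs, log2 ratio -0.67) and Hspa1a (93 and 128 UMIs, -0.60). Fos (30133 and 19925 UMIs) was higher, with 0.46, Zfp36 with 0.32, and Egr1 (-0.26) and Jund (-0.22) were lower. Their part in the lower members was not tested.

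The 5 regulators of p53 had log2 ratios from 0.00 to 0.30. Trp53 itself had 8059 UMIs (157 CPM) in CKO and 5953 UMIs (127 CPM) in control, a log2 ratio of 0.30 (0.25 to 0.35). Triap1, a small mitochondrial protein that restrains apoptosis, had 1252 and 925 UMIs (24.3 and 19.8 CPM), a log2 ratio of 0.30 (0.18 to 0.42). Mdm2, both inhibitor and target of p53, had 2221 and 1920 UMIs (43.2 and 41.1 CPM), a log2 ratio of 0.07 (-0.02 to 0.16). Mdm4 had 3882 and 3359 UMIs (75.5 and 71.9 CPM), also 0.07 (0.00 to 0.14). Ppm1d, the phosphatase WIP1 that switches p53 off, had 1022 and 929 UMIs (19.9 CPM in each library), 0.00 (-0.13 to 0.13). Counts from the 3′ end do not tell splice forms apart, so these values say nothing about which Mdm4 isoform was made.

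Among death receptors, Fas, the receptor that triggers apoptosis on Fas ligand, had 2497 UMIs (48.6 CPM) in CKO and 1644 UMIs (35.2 CPM) in control, a log2 ratio of 0.47 (0.38 to 0.56). Tnfrsf10b, the mouse TRAIL receptor, had 165 and 135 UMIs (3.21 and 2.89 CPM), 0.15 (-0.18 to 0.49). Among repair genes, Polk, the translesion DNA polymerase kappa, had 505 UMIs (9.82 CPM) in CKO and 289 UMIs (6.18 CPM) in control, 0.67 (0.46 to 0.88). Polk (chr13:96480690-96542579, minus strand) overlaps Gm17622 on the other strand, and whether the counting used strand is not given in the sources used here. Ercc5, a nuclease of nucleotide excision repair, had 1009 and 710 UMIs (19.6 and 15.2 CPM), 0.37 (0.23 to 0.51). Xpc, which recognises the damage that Ercc5 later cuts out, had 1213 and 889 UMIs (23.6 and 19.0 CPM), 0.31 (0.18 to 0.44). These 3 repair genes were higher beyond counting error. Ddb2, which senses ultraviolet lesions, with 969 and 900 UMIs (18.8 and 19.3 CPM) and -0.03 (-0.16 to 0.10), and Rrm2b, a ribonucleotide reductase subunit, with 781 and 650 UMIs (15.2 and 13.9 CPM) and 0.13 (-0.02 to 0.28), were not.

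None of the 4 metabolic members was higher beyond counting error. Fdxr, ferredoxin reductase, which passes electrons to mitochondrial P450 enzymes, had 697 and 788 UMIs (13.6 and 16.9 CPM), a log2 ratio of -0.31 (-0.46 to -0.17). Sesn1, a sestrin that restrains mTORC1, had 1889 and 1769 UMIs (36.7 and 37.8 CPM), -0.04 (-0.14 to 0.05). Sesn2, its relative, had 114 and 102 UMIs (2.22 and 2.18 CPM), 0.02 (-0.38 to 0.42). Tigar, a phosphatase that diverts sugar from glycolysis, had 276 and 288 UMIs (5.37 and 6.16 CPM), -0.20 (-0.44 to 0.04). Fdxr was therefore the 1 metabolic member whose interval excluded 0, on the lower side.

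**Figure D2:**
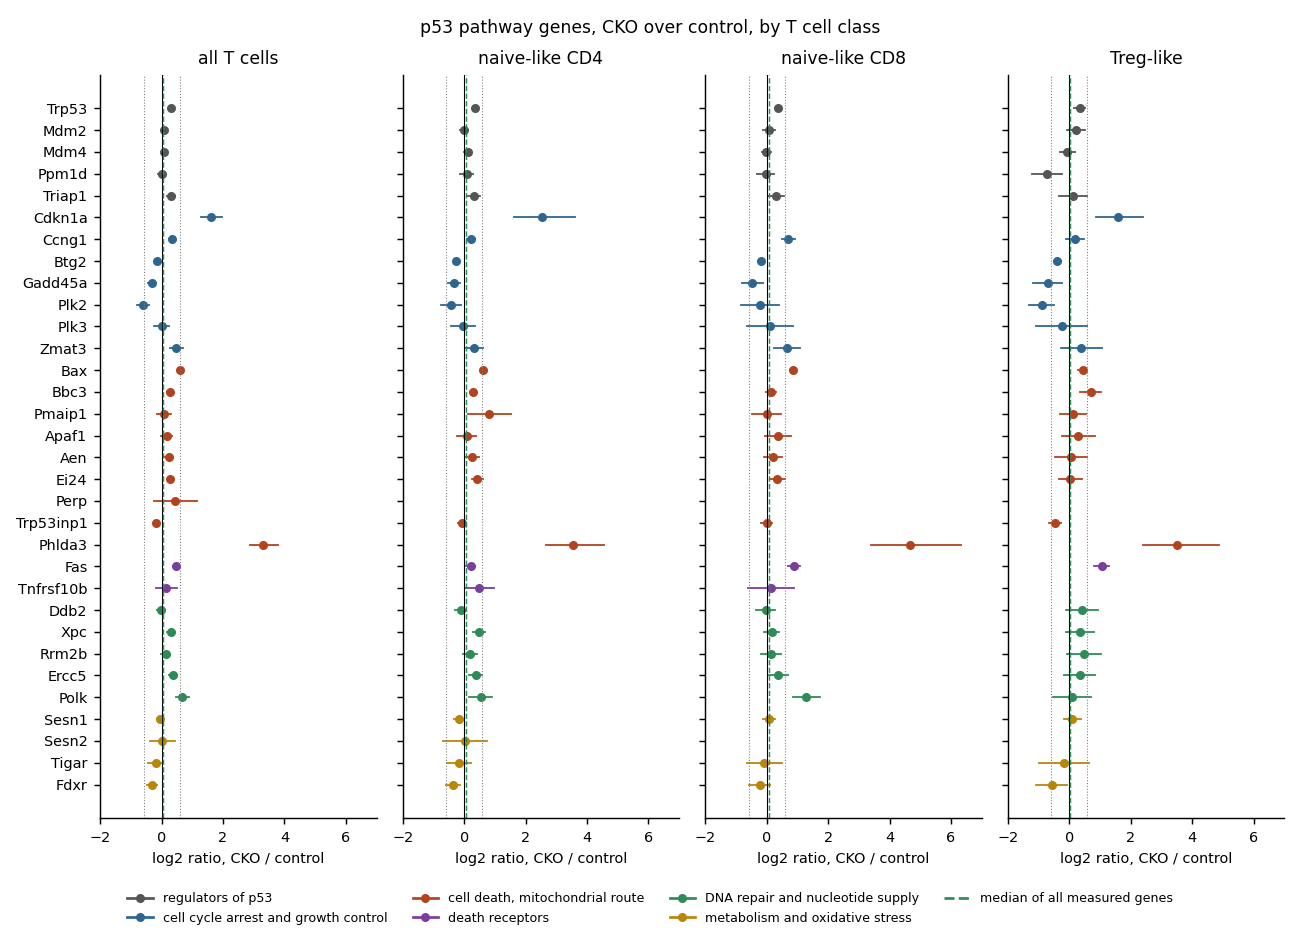
Log2 ratio of CKO over control for each p53 pathway gene with at least 50 UMIs in the class, in all T cells and in the 3 main classes, with 95% counting intervals, the median of all measured genes (dashed) and 1.5-fold lines (dotted). Phlda3 is far to the right in all 4 panels, Cdkn1a in the 3 where it was measured, and Bax lies right of 0 in each.

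Within single classes the set of members past 1.5-fold changed, apart from Phlda3. In naive-like CD4 cells (4381 CKO, 3115 control), 21 of 31 measured members were higher, beside 57.8% of 10045 genes. At least 1.5-fold higher were 4 members (Phlda3, Cdkn1a, Pmaip1 and Bax), beside 3.87%, and 0 were lower by as much, beside 1.85%. In naive-like CD8 cells (1378 and 1718), 19 of 29 were higher, beside 61.4% of 9250 genes, and the 6 members past 1.5-fold were Phlda3, Polk, Fas, Bax, Ccng1 and Zmat3, beside 4.96%. None was lower by as much, beside 2.06%. In Treg-like cells (492 and 550), 20 of 29 were higher, beside 50.6% of 7976 genes. There Phlda3, Cdkn1a, Fas and Bbc3, 4 members, were at least 1.5-fold higher, beside 4.34%, and Plk2, Ppm1d and Gadd45a, 3 members, at least 1.5-fold lower, beside 4.91%. The direction of the Treg-like set was not stable. In cells gated on Foxp3 UMIs 9 of 21 members were higher, beside 50.9% of genes, and in cells with a Y-linked UMI 10 of 22, beside 53.2%.

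In the 3 main classes Phlda3 was far higher in CKO. It had 175 and 11 UMIs (6.91 and 0.597 CPM) in naive-like CD4 cells, 101 and 5 UMIs (9.77 and 0.388 CPM) in naive-like CD8 cells, and 73 and 7 UMIs (20.3 and 1.79 CPM) in Treg-like cells. The log2 ratios were 3.53 (2.66 to 4.56), 4.66 (3.39 to 6.31) and 3.51 (2.39 to 4.87), ranks 2 of 10045, 1 of 9250 and 1 of 7976. In the unnamed Tnfrsf9 group, which carries activation genes, its level was 29.2 CPM (21.6 to 38.6) in CKO and 2.09 CPM in control. That group joins 3 clusters with 39.8 CPM (27.8 to 55.0), 25.5 CPM (12.7 to 45.6) and 5.87 CPM (0.711 to 21.2) of Phlda3 in CKO, the last from 2 UMIs. Proliferating-like cells had 25 CPM (18.3 to 33.3) in CKO and 1.53 CPM in control. The CKO levels of the Tnfrsf9 group, proliferating-like and Treg-like cells have overlapping intervals, each above those of both naive-like classes. No such difference was seen in memory-like CD4 cells (3 and 5 UMIs, 2.72 and 2.45 CPM) or the unnamed Fcer1g group (14 and 5 UMIs, log2 ratio 0.80, -0.75 to 2.63), and NKT-like cells had 0 and 5 UMIs in 19 and 105 cells. Gamma-delta-like cells, 100 CKO and 22 control, held no Phlda3 UMI, which allows a share of up to 3.00% and 13.6% of cells. The Prmt5 log2 ratio was -0.81 (-2.17 to 0.37) in memory-like CD4 cells and -0.36 (-1.55 to 0.87) in the Fcer1g group. It was -0.68 (-2.81 to 1.91) in gamma-delta-like and -0.20 (-3.38 to 1.90) in NKT-like cells. Each of these intervals held 0, while those of naive-like CD4, naive-like CD8, Treg-like, proliferating-like and Tnfrsf9 cells lay below 0. The part of Prmt5 in these Phlda3 values was not tested. B-like cells with a Phlda3 UMI numbered 0 of 75 in CKO and 3 of 74 in control (4.05%), at median depths of 5716 and 4734 UMIs, which allows up to 4% in CKO and gives an interval of 0.844 to 11.4% in control. The control B-like share lies above that of control T cells, 0.619% (0.445 to 0.839%), so these few cells cannot set a background level for T cells. How far the Phlda3 UMIs of control T cells are background was not tested. The CKO share among all T cells, 4.81% (4.34 to 5.31%), lies above the 4% limit in CKO B-like cells. Its interval overlaps their exact interval, 0 to 4.80%, and the share lies within the interval of the control B-like cells. In naive-like CD4 cells the CKO share was 3.22% (2.72 to 3.78%), below that limit.

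Cdkn1a followed another map. In control it was near absent from naive-like CD4 cells, with 11 UMIs (0.597 CPM), against 88 UMIs (3.48 CPM) in CKO, a log2 ratio of 2.54 (1.63 to 3.59). Of the 88 UMIs, 48 came from the naive-like CD4 cluster that held 1193 CKO and 41 control cells. Without that cluster the log2 ratio was 1.93. In cells gated on Cd4 UMIs in place of clusters, which are not only naive-like ones, it was 1.56. In Treg-like cells Cdkn1a had 58 and 21 UMIs (16.2 and 5.36 CPM), 1.59 (0.85 to 2.39). Gamma-delta-like cells had the highest level, 60 and 16 UMIs (76.7 and 76.2 CPM), with overlapping intervals and a log2 ratio of 0.01 (-0.81 to 0.90). Naive-like CD8 cells had only 16 and 6 UMIs. Proliferating-like cells had 45 and 4 UMIs (24.4 and 3.06 CPM), and memory-like CD4 cells 31 and 8 UMIs (28.1 and 3.92 CPM). The memory-like CD4 class was made of different clusters in the libraries, 246 of 313 control cells lying in a cluster with 23 CKO cells.

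**Figure D3:**
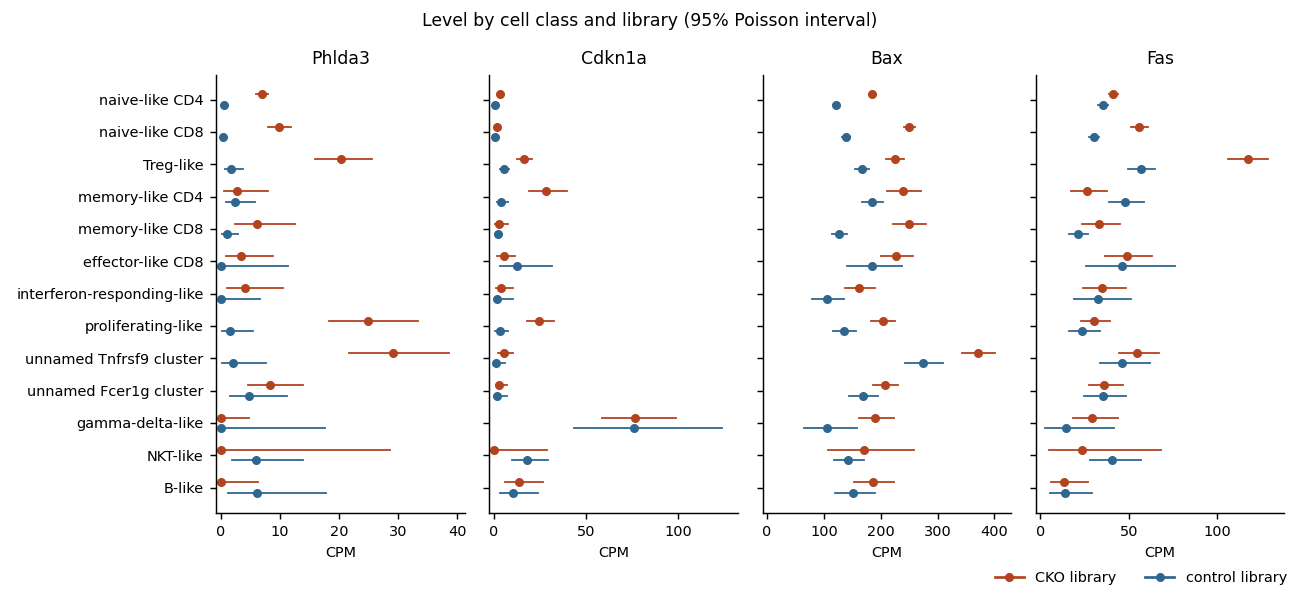
Level (CPM) of Phlda3, Cdkn1a, Bax and Fas in each cell class, CKO and control library, with 95% Poisson intervals. Phlda3 is above control in naive-like, Treg-like, proliferating-like and Tnfrsf9 cells but not in memory-like CD4, gamma-delta-like or NKT-like cells, Cdkn1a peaks in gamma-delta-like cells of both libraries, Bax is higher in CKO in each class drawn, and Fas departs from control most in Treg-like and naive-like CD8 cells.

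Bax, the killer followed above, was higher in CKO in each T cell class taken whole, though not in each cluster. The libraries' intervals overlapped in NKT-like (107 to 259 and 118 to 170 CPM) and effector-like CD8 cells (200 to 256 and 141 to 238 CPM). They also overlapped in the Fcer1g group, by cluster at 209 to 268 and 145 to 211 CPM, and at 124 to 188 and 121 to 201 CPM. Its level was higher in CKO in naive-like CD4 cells (184 and 121 CPM, log2 ratio 0.60), naive-like CD8 cells (251 and 139 CPM, 0.86), Treg-like cells (225 and 167 CPM, 0.43) and memory-like CD8 cells (249 and 127 CPM, 0.97). The memory-like CD8 class was made of different clusters in the libraries, 165 of 300 control cells lying in a cluster with 14 CKO cells. Within its clusters Bax stood at 340 and 119 CPM, 179 and 126 CPM, and 149 and 174 CPM, the last lower in CKO with overlapping intervals. In the memory-like CD4 clusters Bax stood at 142 and 173 CPM, 267 and 275 CPM, and 218 and 199 CPM. It was also lower in CKO, with overlapping intervals, in a Treg-like cluster (158 and 170 CPM) and an Fcer1g cluster (154 and 157 CPM). In B-like cells it stood at 186 and 152 CPM, 0.29 (-0.15 to 0.73), an interval that holds 0 and also most of the T cell ratios.

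Fas differed between classes. Treg-like cells had 420 and 222 UMIs (117 and 56.6 CPM), a log2 ratio of 1.05 (0.81 to 1.29). Naive-like CD8 cells had 578 and 390 UMIs (55.9 and 30.2 CPM), 0.89 (0.70 to 1.08), and naive-like CD4 cells 1039 and 654 UMIs (41.0 and 35.5 CPM), 0.21 (0.07 to 0.35). In memory-like CD4 cells Fas went the other way, with 29 and 98 UMIs (26.3 and 48.0 CPM), -0.87 (-1.52 to -0.26), in the class whose clusters differed between libraries. Treg-like cells had the highest Fas level in both libraries, though in control the interval (49.4 to 64.6 CPM) overlapped that of memory-like CD4 cells (39.0 to 58.5 CPM).

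Other members showed their widest ratios in 1 or 2 classes. Polk stood at 12.6 and 5.19 CPM in naive-like CD8 cells (130 and 67 UMIs), a log2 ratio of 1.28 (0.84 to 1.72) that was 1.99 in cells with a Y-linked UMI, and at 12.8 and 12.0 CPM in Treg-like cells (46 and 47 UMIs), 0.10 (-0.52 to 0.71). Ccng1 had 41.9 and 25.8 CPM in naive-like CD8 cells, 0.70 (0.49 to 0.91), beside 0.21 (0.07 to 0.35) in naive-like CD4 cells. Bbc3 reached 49.9 and 30.9 CPM in Treg-like cells, 0.69 (0.35 to 1.04). In the Tnfrsf9 group Bbc3 had 55 and 8 UMIs, 1.97 (0.89 to 3.25), and in proliferating-like cells 59 and 18 UMIs, 1.22 (0.44 to 2.07). Pmaip1 was rare in naive-like CD4 cells, with 62 and 26 UMIs (2.45 and 1.41 CPM), 0.79 (0.11 to 1.51), and 2.49 in those with a Y-linked UMI. In cells gated on Cd4 UMIs in place of clusters, which are not only naive-like ones, the Pmaip1 ratio was -0.06. In Treg-like cells Plk2 had 75 and 153 UMIs (-0.90), Ppm1d 58 and 104 UMIs (-0.72) and Gadd45a 64 and 114 UMIs (-0.71), all lower in CKO. In cells gated on Foxp3 UMIs the ratio of Plk2 was -1.64 and that of Gadd45a -1.36. Btg2 was lower in CKO in each of the 3 main classes, by 0.28, 0.20 and 0.40 on the log2 scale.

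Members also went together within the CKO library. The 364 CKO T cells with a Phlda3 UMI were set beside the 7209 without one, and the UMIs expected from the other cells of the same clusters were scaled to the same total. Intervals of these ratios take the expected number as fixed. Of 28 members with at least 10 expected UMIs, 20 were higher in the Phlda3 cells and 8 lower, and 11 were at least 1.5-fold higher, beside 1.73% of 9315 genes. The number at least 1.5-fold lower was 0, beside 3.7% of genes. Cdkn1a led with 102 UMIs where 21.7 were expected, a ratio of 4.71 (3.84 to 5.72). Zmat3 followed with 90 UMIs against 29.6, 3.04 (2.45 to 3.74), and Ccng1 with 345 UMIs against 131, 2.64 (2.37 to 2.93). Polk (2.45), Aen (2.39), Bbc3 (2.19), Bax (1.96), Ei24 (1.94), Apaf1 (1.90), Mdm2 (1.52) and Fas (1.51) complete the 11. Phlda3 cells were deeper, with a median of 6940 UMIs against 6015, and had a like mitochondrial share, 4.20% against 4.33%.

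**Figure D4:**
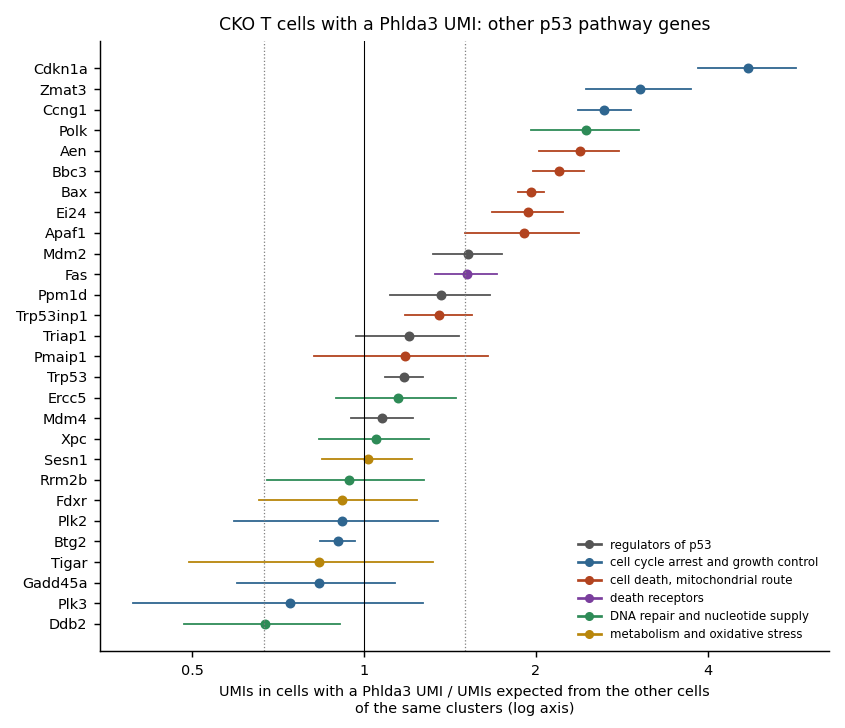
CKO T cells with a Phlda3 UMI: UMIs of each other p53 pathway gene over the number expected from the remaining CKO T cells of the same clusters (log axis), with 95% Poisson intervals, coloured by role, dotted lines at 1.5-fold. Cdkn1a, Zmat3 and Ccng1 lead, death genes such as Aen, Bbc3 and Bax follow, and Btg2, Gadd45a, Plk3 and Ddb2 lie below 1.

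Some members with a higher level in CKO differed little in this split. Trp53 had a ratio of 1.18 (1.09 to 1.27), Xpc an interval of 0.835 to 1.30 and Ercc5 1.15 (0.892 to 1.45). Mdm2, whose library ratio interval held 0, was 1.52-fold (1.32 to 1.75) higher in cells with a Phlda3 UMI. Btg2 (0.900, 0.838 to 0.965) and Ddb2 (0.671, 0.484 to 0.908) were lower there. The association of Cdkn1a was widest in naive-like CD4 cells, where its overall level is low, with 48 of the 88 UMIs in the 141 Phlda3 cells and 1.41 expected. Counted by cells, 24 of those 141 cells (17.0%, 11.2 to 24.3%) had a Cdkn1a UMI, against 36 of the other 4240 (0.849%, 0.595 to 1.17%). In naive-like CD4 cells Ppm1d (2.46, 1.72 to 3.40) and Fas (2.13, 1.66 to 2.69) also passed 1.5-fold, with Aen (3.49), Ei24 (2.81), Ccng1 (2.73), Bax (2.25), Bbc3 (1.94) and Mdm2. These are 8 of 19 members that could be read, beside 4.56% of genes, and 1 member, Gadd45a (9 UMIs, 0.582, 0.266 to 1.10), was at least 1.5-fold lower, beside 3.58%.

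In naive-like CD8 cells, 81 with a Phlda3 UMI, Ccng1 (2.27), Aen (2.18), Bax (2.04), Bbc3 (1.65) and Trp53inp1 (1.63) were at least 1.5-fold higher, 5 of 18 members beside 3.96% of genes. There Ddb2 (7 UMIs, 0.605) and Ercc5 (8 UMIs, 0.596) were at least 1.5-fold lower, beside 4.9% of genes, with intervals that hold 1. Fas, which differed between libraries in this class, was at 1.08 (0.772 to 1.46) in the split. Cells were also split by Cdkn1a. In the 203 CKO T cells with a Cdkn1a UMI, Phlda3 had a ratio of 4.86 (3.92 to 5.96), Zmat3 2.45, Ccng1 2.43, Aen 1.77 and Bax 1.63, among 9 of 28 members at least 1.5-fold higher, beside 2.79% of genes. Gadd45a (20 UMIs, 0.652, 0.399 to 1.01) was the 1 member at least 1.5-fold lower, beside 3.46%. In the control library 41 T cells had a Phlda3 UMI, 11 members could be read, and Ccng1 (2.3, 1.59 to 3.21), Bbc3 (1.84, 1.22 to 2.66) and Bax (1.84, 1.53 to 2.19), 3 members, were at least 1.5-fold higher, beside 4.12% of genes, and 0 as much lower, beside 6.76%. None of those 41 cells had a Cdkn1a UMI, which allows a share of up to 7.32%.

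Genes of the pathway outside the 34 were split about evenly by direction. Of 22 other known p53 targets, 18 were measured in all T cells, 9 higher and 9 lower, with a median log2 ratio of 0.00, and 2 were at least 1.5-fold higher, beside the 60.6% and 4.89% of all measured genes given above. Those were Rps27l, a small ribosomal protein paralog (7949 and 4598 UMIs, 0.65, 0.60 to 0.71), and Gtse1, a mitotic microtubule protein (105 and 54 UMIs, 0.82, 0.34 to 1.32). Atf3 (43 and 57 UMIs, -0.54), Trp53i11 (0.37), Ckap2 (0.31) and Bloc1s2 (0.21) came next in size. Rps27l was higher in naive-like CD4 cells by 0.60, in naive-like CD8 cells by 0.89 and in Treg-like cells by 0.73, and by 1.74-fold (1.64 to 1.84) in CKO cells with a Phlda3 UMI. In B-like cells its log2 ratio was -0.14 (-0.61 to 0.33). Rps27l shares much of its sequence with Rps27, and how reads that match both were counted is not given in the sources used here.

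Of 27 kinases, ligases, acetyltransferases and partners of p53, 24 were measured, 11 higher and 13 lower, beside the same shares of all genes, with a median of 0.00. The 2 at least 1.5-fold higher were Cdkn2a, whose ARF product blocks MDM2, and Trp53rkb, a copy of a p53 kinase gene (762 and 388 UMIs, 0.84, 0.66 to 1.02). Cdkn2a had 72 UMIs in CKO and 2 in control, a log2 ratio of 5.03 (3.13 to 8.11). It was not spread like Phlda3, with 0 UMIs in naive-like CD4 and naive-like CD8 cells of both libraries. Its UMIs came from Treg-like (23 and 1), proliferating-like (24 and 1) and memory-like CD4 cells (16 and 0), and in CKO cells with a Phlda3 UMI it had 9 UMIs where 11.0 were expected. Counts of Cdkn2a do not tell ARF from its other product, p16. Trp53rkb is nearly identical to Trp53rka (786 and 781 UMIs, -0.13), and how reads that match both were counted is not given in the sources used here. Chek1 (0.39), Wrap53 (0.31), Chek2 (0.24) and Rchy1 (0.23) were the next largest.

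S phase and mitosis genes were also counted, and their part in the members' values was not tested. In all T cells 12 of 15 were higher, beside 60.6% of all genes, and 3 lower, 2 of them at least 1.5-fold higher, Ccnb2 (0.80) and Birc5 (0.67), with Stmn1 (0.36), Mcm5 (0.35), Cdk1 (0.32) and Rrm2 (0.31) next. In Treg-like cells 11 of 14 were higher, 7 at least 1.5-fold, beside 50.6% and 4.34% of genes. In naive-like CD4 cells 5 of 12 were higher and 0 at least 1.5-fold, beside 57.8% and 3.87%. The Phlda3 ratio in naive-like CD4 cells, given above, was as large as in Treg-like cells. Without the proliferating-like and Tnfrsf9 clusters the all T cell log2 ratios were 3.17 for Phlda3 and 1.47 for Cdkn1a. The anti-apoptotic Bcl2, named after its values were seen, had 19065 and 11651 UMIs (371 and 249 CPM), 0.57 (0.54 to 0.61), a ratio close to that of Bax, while Mcl1 was at -0.04 (-0.07 to -0.01).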

How the data were processed

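The deposited matrices hold raw UMI counts, 1 value for each gene in each barcode, made by the authors with Cell Ranger 3.1.0, per the submitters' processing notes, which also name CASAVA 1.8, Seurat 2.3.4 and the build mm10 without their roles. Depth was 52387620 UMIs in 7896 CKO barcodes and 48273424 in 7407 control barcodes.

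A barcode was kept if it had 500 genes or more and less than 10% of UMIs from mitochondrial genes, and both libraries clustered together (scanpy 1.11.5, 2000 variable genes without receptor, mitochondrial and ribosomal genes, 30 components, 15 neighbours, Leiden resolution 1). Clusters that mixed lineages, and those named memory-like CD4, were clustered again. Names came from marker thresholds set after clusters had been seen. Scrublet called 0 doublets, so it had not worked, and leaving out the highest 6% of scores was an alternative. For each class the UMIs of a gene were added up in each library and scaled to all UMIs of that class (CPM). A gene was measured at 50 UMIs or more and a ratio of 1.5 marked. Ratio and interval code was tested on simulated data. With 1 library per group no test was run. Alternatives covered cell filters, doublet scores, clustering, marker gates, scaling (edgeR TMM included), count minimums, class weights and cells with a Y-linked UMI.

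The members and lists were chosen with earlier results of these data known. Every member is accounted for. Members with 100 UMIs or more got levels and a ratio, class ratios needed 50 UMIs, and up to 6 genes of each other list, those with the largest ratios, were named. RefSeq promoters matched 26 of 34 members by symbol. Gene positions came from GENCODE vM21 (GRCm38).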

Additional observations from a re-analysis of the deposited data

Results flagged for a closer look

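Barcodes that the cell filter left out, 236 from CKO and 695 from control, lie outside the comparisons and held 4 members at higher levels in CKO and 1 at a lower level, with ratio intervals off 1. Cdkn1a had 7 UMIs against 1, a CPM ratio of 19.8 (2.54 to 892). Phlda3 had 7 against 2, a ratio of 9.90 (1.88 to 97.7). Polk had 8 against 6, a ratio of 3.77 (1.15 to 13.2), and Bax 58 against 86, a ratio of 1.91 (1.34 to 2.69). Btg2 was the lower one, with 150 against 531 UMIs and a ratio of 0.799 (0.662 to 0.959). These are few molecules, and the intervals cover counting error only. No share of all genes is given for these barcodes, so the count of members cannot be set against one.

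For 2 genes the CKO over control ratio pointed one way in some classes and the other way in another, with intervals off 0 on both sides. The difference was not tested, since each class has 1 sample per library. The log2 ratio of Fas was higher in naive-like CD8 cells than in memory-like CD4 cells by 1.76, in Treg-like cells by 1.92 and in memory-like CD8 cells by 1.51. For Mdm4, the log2 ratio was 0.67 in proliferating-like cells (114 and 51 UMIs) and 0.85 in the Tnfrsf9 group (98 and 31 UMIs), against -0.83 in effector-like CD8 cells (50 and 25 UMIs), differences of 1.49 and 1.67. Memory-like CD4 cells of the libraries fell mostly in different clusters, and so did memory-like CD8 cells. Within the memory-like CD8 clusters Fas stood at 53.2 and 29.4 CPM, 14.4 and 16.1 CPM, and 11.6 and 16.9 CPM in CKO and control. There were 48 control effector-like CD8 cells.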

How the results depend on the processing

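No paired analysis was possible because each group is 1 library. Leaving out single clusters and the repeats of the Phlda3 split were chosen after seeing the data. Phlda3, Cdkn1a and Bax were higher in CKO in all T cells under each of 15 alternatives, with log2 ratios from 2.52 to 3.63, 0.39 to 1.91 and 0.56 to 0.70. The number of members at least 1.5-fold lower in all T cells was 0 without a cell filter, 4 with classes weighted equally and 0 without the proliferating-like and Tnfrsf9 clusters, against 1 as reported. With classes weighted equally Tnfrsf10b was at -0.94 and Tigar at -0.99. A gate for cells with a Cd4 UMI and no Cd8a, Cd8b1 or Foxp3 UMI was set beside naive-like CD4 cells. It has no naive marker, so it also takes in other Cd4 cells. There 2 members were at least 1.5-fold higher and 1 lower, and the log2 ratio of Pmaip1 was -0.064. In naive-like CD4 cells with a minimum of 200 UMIs 1 was higher. In Treg-like cells, 9 of 21 members were higher when gated and 10 of 22 in cells with a Y-linked UMI, below the 50.9% and 53.2% of all genes, and the members' median was -0.11 when gated. With a minimum of 200 UMIs 8 of 12 were higher, beside 52.8% of genes, 2 of them at least 1.5-fold, and 1 was at least 1.5-fold lower. Among recomputed counts, medians and sums, 204 stayed within 1.5 times or counting error and 11 did not. Among ratios of single genes 1458 stayed, 93 moved further and 1, that of Pmaip1, was counted as reversed. Only ratios at least 1.5-fold with an interval off 0 could be counted so. Smaller ratios changed sign as well. Apaf1 in all T cells went from 0.16 to -0.16 at its lowest, and Fas in naive-like CD4 cells from 0.21 to -0.02. In the Phlda3 split, 10 or 11 members were at least 1.5-fold higher under 4 alternatives. Depth limits Perp, Sesn2 and Tnfrsf10b, the measured members with the fewest UMIs. The causes of these shifts were not tested.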
